A study of Mus musculus with 2 samples.

Results

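The miR-29 family of microRNA (miRNA) genes was followed in adrenal glands of males of B6CASTF1/J, a first-generation cross between C57BL/6 and CAST/EiJ mice, at 10 days of age. Its members are the rows of the count tables whose Ensembl identifiers carry the symbols Mir29a, Mir29b-1, Mir29b-2 or Mir29c in GENCODE M21. All 4 were found, among 2202 genes in the tables. The study holds 1 group of 2 libraries of short RNA, numbered as biological replicates 1 and 2 and labelled as different males with a shared donor record, with no second condition. Whether glands were pooled is not stated. The comparisons are therefore those between members, between their genomic clusters and between both libraries.

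A miRNA is cut from a hairpin-shaped precursor, and each hairpin can yield a mature strand from its 5′ arm (5p) and from its 3′ arm (3p). The strand that is loaded into Argonaute pairs with messenger RNAs mainly through its seed, bases 2 to 8. The miR-29 family works through its 3p strand and is known as a repressor of genes for collagens, elastin and fibrillin, so that loss of miR-29 goes with fibrosis in several organs. Enzymes that methylate and demethylate DNA (Dnmt3a, Dnmt3b, Tet1 to Tet3) and the survival factor Mcl1 are other known targets.

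The 3p strands are shown first, since they define the family. Capitals mark the seed, and the sequences are those of RefSeq on GRCm38.p6.

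miR-29a-3p: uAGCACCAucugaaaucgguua

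miR-29b-3p: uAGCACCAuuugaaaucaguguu

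miR-29c-3p: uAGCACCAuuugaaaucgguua

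All 3 strands carried the seed AGCACCA, and no mature entry from another gene in the RefSeq table had it. Counted from 1 at the 5′ end, miR-29a-3p differed from miR-29c-3p by the single substitution C10U. miR-29c-3p and miR-29b-3p were identical over the first 17 bases and first differed by G18A. Mir29b-1 and Mir29b-2 have the same miR-29b-3p, so a read of that strand fits both genes equally well.

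The 5p strands differ more and have no seed in common with the 3p strands or with each other. They are shown because they can assign a read to 1 copy of 29b. As annotated, miR-29b-2-5p starts 1 base later than miR-29b-1-5p and has its seed in common with miR-6338.

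miR-29a-5p: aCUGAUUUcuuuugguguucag

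miR-29b-1-5p: gCUGGUUUcauauggugguuua

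miR-29b-2-5p: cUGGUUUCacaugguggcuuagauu

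miR-29c-5p: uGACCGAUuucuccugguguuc

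Over the 25 bases of miR-29b-2-5p, the hairpin of Mir29b-1 differed at 2 positions, C10U and C18U, counted from the 5′ end of miR-29b-2-5p. The hairpins of both 29b copies are printed whole, with their annotated 5p and 3p strands in capitals.

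Mir29b-1: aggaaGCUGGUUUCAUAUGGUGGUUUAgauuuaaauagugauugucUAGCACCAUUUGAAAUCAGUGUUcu

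Mir29b-2: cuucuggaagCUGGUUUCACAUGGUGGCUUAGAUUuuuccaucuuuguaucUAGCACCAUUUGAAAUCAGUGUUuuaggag

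These hairpins shared an unbroken run of 25 bases, which covers the whole miR-29b-3p and the 2 bases before it. By global alignment 73.2% of their aligned columns were identical, against 78.0% for Mir29a with Mir29c. The longest run shared by Mir29a and Mir29c was 14 bases, shorter than a mature strand of either.

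The family lies in 2 clusters, each with 1 copy of 29b upstream. On the mm10 build, Mir29b-1 (ENSMUSG00000065604.2, chr6:31063023-31063093) and Mir29a (ENSMUSG00000065610.1, chr6:31062660-31062747) lie on the minus strand, 275 bases apart. Mir29b-2 (ENSMUSG00000065412.3, chr1:195037040-195037120) and Mir29c (ENSMUSG00000065548.1, chr1:195037547-195037634) lie on the plus strand, 426 bases apart. GENCODE M21 places both chromosome 1 hairpins wholly inside exons of the noncoding gene A330023F24Rik on their own strand. They also lie inside exonic sequence of Cd46, a complement regulator, on the opposite strand. On chromosome 6, Mir29a overlaps no other annotated gene, and Mir29b-1 overlaps an exon of the noncoding gene Gm27019 by 2 bases.

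Levels are counts on the strand of the gene, scaled to 1000000 of all such gene counts (CPM). These totals were 3080062 counts in replicate 2 and 2843734 in replicate 1. Reads come from short mature strands and not from the whole hairpin, so CPM is not divided by length, and the value per hairpin base is added where genes are compared. Intervals are exact 95% Clopper-Pearson intervals and cover the counting error of reads only, not the spread between libraries or animals. The files record no molecular identifiers, so repeated reads of the same molecule are not told apart. Mir122, the main hepatocyte miRNA, took 9.79% of the counts in replicate 2 and 2.94% in replicate 1. Mir375, known from neuroendocrine cells such as those of the adrenal medulla, had 34383 CPM in replicate 2 and 34144 CPM in replicate 1. Marker lists are given with the comparison of the libraries.

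Mir29a carried most of the family's counts. It had 2428 counts (788 CPM) in replicate 2 and 3162 counts (1112 CPM) in replicate 1, a mean of 950 ± 229 CPM (SD, n = 2). Replicate 1 was the higher library, and the interval of 757 to 820 CPM in replicate 2 did not overlap that of replicate 1, 1074 to 1151 CPM.

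Mir29c, whose 3p strand differs from miR-29a-3p by 1 base, had 486 counts (158 CPM) in replicate 2 and 720 counts (253 CPM) in replicate 1, a mean of 205 ± 67.5 CPM (SD, n = 2). Here too replicate 1 was higher and the interval of 144 to 172 CPM in replicate 2 did not overlap that of replicate 1, 235 to 272 CPM.

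The 29b copies were scarce in the reads assigned to genes. A read of their common miR-29b-3p fits both, so these counts do not give the amount of miR-29b. Mir29b-1 had 45 counts (14.6 CPM) in replicate 2 and 34 counts (12.0 CPM) in replicate 1, a mean of 13.3 ± 1.88 CPM (SD, n = 2). Mir29b-2 had 19 counts (6.17 CPM) in replicate 2 and 24 counts (8.44 CPM) in replicate 1, a mean of 7.30 ± 1.61 CPM (SD, n = 2). For both copies the intervals of the libraries overlapped. All these counts are well above the 3 counts that a count of 0 allows.

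**Figure D1:**
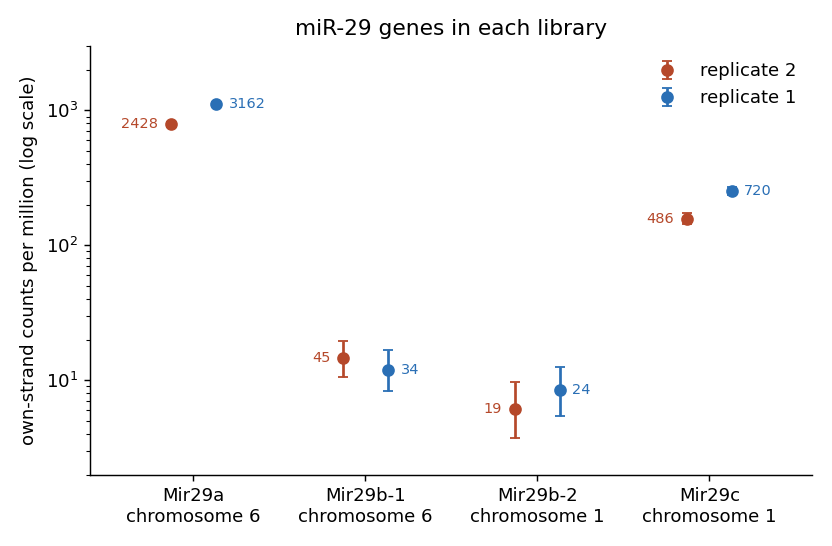
Own-strand CPM (log axis) of each miR-29 gene in replicate 2 and replicate 1, with exact 95% intervals and the counts printed beside the points. Mir29a and Mir29c lie far above both 29b copies, and replicate 1 lies above replicate 2 for Mir29a and Mir29c.

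Among all 2202 genes ranked by mean CPM, Mir29a was at rank 88, Mir29c at 166, Mir29b-1 at 294 and Mir29b-2 at 329. Per hairpin base the ranks were 93, 170, 286 and 326, in the same order. Of the 441 genes with at least 1 CPM in both libraries, 87 were above Mir29a and 165 above Mir29c. The median of these 441 genes was 73.3 CPM, which lies below Mir29a and Mir29c and above both 29b copies.

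By mean CPM the neighbours of Mir29a were Mir341 at 956 CPM and Mir434 at 927 CPM, those of Mir29c were Mir700 at 208 CPM and Mir194-2 at 201 CPM, those of Mir29b-1 were n-TSaga9 at 13.3 CPM and Gm23935 at 12.8 CPM, and those of Mir29b-2 were Mir190b at 7.34 CPM and Mir3076 at 7.06 CPM. Each of these differences was smaller than the member's own SD between libraries, so the order among such neighbours is not settled. Mir29a, Mir29c and the 29b copies lie apart by far more than that.

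The 4 genes together held 2978 counts, or 0.0967% of gene counts (95% interval 0.0932 to 0.100), in replicate 2 and 3940 counts, or 0.139% (0.134 to 0.143), in replicate 1. The mean was 0.118% ± 0.0296 (SD, n = 2). Mir29a made up 81.5% of the family in replicate 2 and 80.3% in replicate 1. Mir29c made up 16.3% in replicate 2 and 18.3% in replicate 1.

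Both 29b copies together made up 2.15% (95% interval 1.66 to 2.74) of the family counts in replicate 2 and 1.47% (1.12 to 1.90) in replicate 1, and these intervals overlapped. A read of the identical miR-29b-3p fits both copies, and the files hold reads that map to several places in a row of their own. That row held 2308583 reads (25.9% of the file) in replicate 2 and 2065487 reads (27.5%) in replicate 1, for all genes together. How many of them were miR-29b-3p was not tested, nor how far such reads also entered the gene counts, so the 29b levels describe assigned reads and not the amount of miR-29b.

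In assigned reads the chromosome 6 cluster exceeded the chromosome 1 cluster in both libraries. It held 2473 counts against 505 in replicate 2, a ratio of 4.90 (95% interval 4.45 to 5.40). In replicate 1 it held 3196 counts against 744, a ratio of 4.30 (3.97 to 4.66). On the log2 scale the mean was 2.20 ± 0.13 (SD, n = 2), so the difference between clusters was larger than the spread between libraries. Per hairpin base the ratios were 5.21 in replicate 2 and 4.57 in replicate 1.

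The assigned reads of both clusters came almost wholly from Mir29a and Mir29c, which have hairpins of the same 88 bases. How many miR-29b-3p reads lie outside these sums was not tested. Their ratio was 5.00 (4.53 to 5.52) in replicate 2 and 4.39 (4.05 to 4.77) in replicate 1, a mean of 2.23 ± 0.13 on the log2 scale (SD, n = 2). The 3p strands of these genes differ by 1 base, and how far reads were assigned to the wrong gene was not tested. With 2 libraries no test across samples was made.

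The 29b copies, compared across the same clusters, were closer to each other in assigned reads. Mir29b-1 exceeded Mir29b-2 by a ratio of 2.37 (1.36 to 4.29) in replicate 2 and 1.42 (0.816 to 2.50) in replicate 1. Per hairpin base these ratios were 2.70 in replicate 2 and 1.62 in replicate 1. The interval of replicate 1 includes equal counts, so at this depth a difference between the copies was detectable in replicate 2 and not in replicate 1. The mean log2 ratio was 0.86 ± 0.52 (SD, n = 2). A read of miR-29b-3p cannot tell the copies apart, so this ratio is not like that of Mir29a over Mir29c. Which strands gave the assigned reads was not tested.

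Inside each cluster the downstream gene was far above its 29b neighbour. Mir29a exceeded Mir29b-1 by a ratio of 54.0 (40.2 to 74.2) in replicate 2 and 93.0 (66.4 to 135) in replicate 1. Mir29c exceeded Mir29b-2 by 25.6 (16.2 to 42.9) in replicate 2 and 30.0 (20.0 to 47.1) in replicate 1. Within each cluster the intervals of the libraries overlapped. The part of unassigned miR-29b-3p reads in these ratios was not tested.

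**Figure D2:**
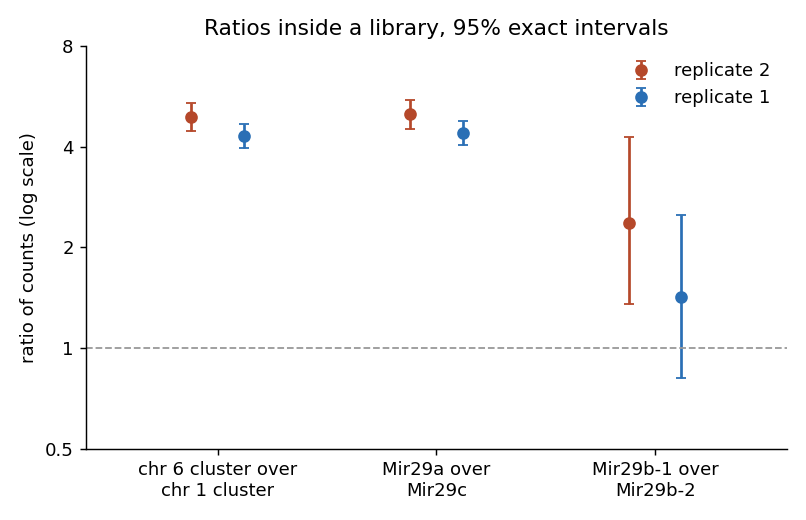
Ratio of counts (log axis) inside replicate 2 and replicate 1 for the chromosome 6 over the chromosome 1 cluster, Mir29a over Mir29c and Mir29b-1 over Mir29b-2, with exact 95% intervals and a dashed line at equal counts. The first 2 ratios lie between 4.30 and 5.00 in both libraries, and the 29b ratio of replicate 1 has an interval that crosses the line.

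Other duplicated miRNA genes can be set beside the 29b copies. Of 2202 genes, 968 had a hairpin in the RefSeq table. Among these, 22 pairs of genes with 2 annotated arms had exactly 1 mature arm in common and no further partner. The 29b copies are such a pair. Pairs with a gene of only 1 annotated arm were left out. By the summed CPM of both copies, 29b ranked 18 of 22, with 20.6 CPM. The pair Mirlet7f-2 and Mirlet7f-1 was highest with 3016 CPM, and Mir16-1 with Mir16-2 had 931 CPM.

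The higher copy of 29b exceeded the lower by a ratio of 1.82 in mean CPM. Mir30c-2 over Mir30c-1 had a lower ratio, 1.22, and Mir194-2 over Mir194-1 the highest of those computed, 80.3. Genes with 2 annotated arms of which 1 was found at another locus numbered 54, and Mir29b-1 was at rank 34 and Mir29b-2 at rank 40 among them by mean CPM. Of these 54 genes 43 (79.6%) reached 1 CPM in each library, and their median was 70.5 CPM. Where both arms were found elsewhere, 3 of 19 genes (15.8%) did so, and with no arm found elsewhere 261 of 553 (47.2%). The 3 were Mirlet7c-2 with 2928 counts in replicate 2 and 1742 in replicate 1, Mirlet7a-1 with 1021 in replicate 2 and 614 in replicate 1, and Mir199a-2 with 51 in replicate 2 and 53 in replicate 1. Their median was 274 CPM, so genes of which every annotated strand is found elsewhere can hold many counts in these files. The median of the detected genes with no arm elsewhere was 113 CPM. These are descriptions of assigned reads, and the table of hairpins is not complete.

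**Figure D3:**
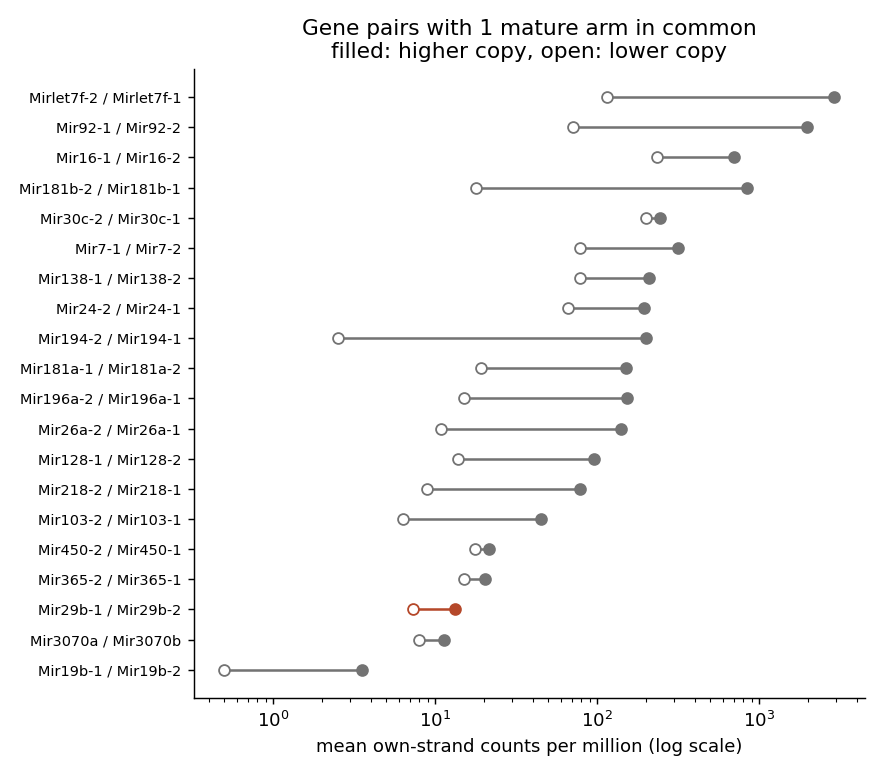
Mean own-strand CPM (log axis) of the higher copy (filled) and the lower copy (open) of miRNA gene pairs with 1 mature arm in common. Both genes of a pair have 2 annotated arms. Pairs are ordered by their sum, without 2 pairs that had at most 1 count in all. The 29b pair, in red, lies near the low end at 13.3 and 7.30 CPM.

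Between the libraries the abundant members differed and the scarce ones were not shown to. The log2 ratio of replicate 2 over replicate 1 was -0.50 (95% interval -0.57 to -0.42) for Mir29a, and the adjusted p was 7.9e-37 by a two-sided exact binomial test. For Mir29c it was -0.68 (-0.85 to -0.51), with an adjusted p of 1.4e-15 in the same exact test. Mir29b-1 had a log2 ratio of 0.28 (-0.39 to 0.98, adjusted p 0.53, exact test) and Mir29b-2 one of -0.44 (-1.40 to 0.48, adjusted p 0.46, exact test). Both intervals include 0. That of Mir29b-2 also includes the log2 ratios of Mir29a and Mir29c, so at its depth a difference of that size was not detectable, and that of Mir29b-1 does not include them. Whether members differ from each other in this ratio was not tested.

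These p-values set both libraries against counting error, not against the spread between animals, and were adjusted over all 444 genes with at least 10 counts. By the same rule 59.0% of the 444 genes differed, 28.6% higher and 30.4% lower in replicate 2. The 2 members called of 4 are near that share, so the count is no result about the family. Of the 176 genes whose summed count reached 1000, which include Mir29a and Mir29c, 90.9% were called.

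The median log2 ratio was -0.47 over the 4 members and 0.07 over all 444 genes. Lower log2 ratios than that of Mir29a were found in 107 genes (24.1%) and lower ones than that of Mir29c in 80 genes. The edgeR exact negative binomial test, which allows for the spread estimated from these 2 libraries, called 0 of the members, and 0 of them had an unadjusted p under 0.05. It called 2 of 444 genes, with 24 at an unadjusted p under 0.05. Its adjusted p was 1 for Mir29a and for Mir29c.

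**Figure D4:**
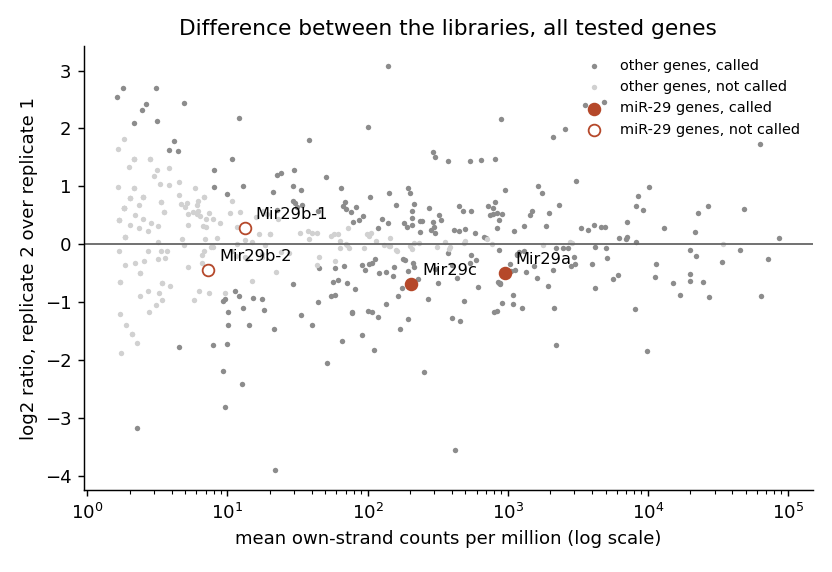
Log2 ratio of replicate 2 over replicate 1 against mean own-strand CPM (log axis) for the 444 tested genes, with genes called by the exact binomial test in dark grey and the miR-29 genes in red. Mir29a and Mir29c lie below 0 at -0.50 and -0.68, inside the cloud of the other genes.

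Levels of markers of other cells are set beside this difference. With the counts of Mir122 left out, the log2 ratios were -0.39 for Mir29a and -0.58 for Mir29c, and both genes still passed the exact binomial test. The sums of the marker lists are each led by 1 or a few genes, and their members often differed in direction by the same test.

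The 5 smooth muscle and fibroblast markers, of cells that make matrix, had a sum of 34060 CPM in replicate 2 against 40292 CPM in replicate 1, of which Mir143 alone was 88.8% in replicate 2 and 92.8% in replicate 1. Mir143 was called lower in replicate 2 with a log2 ratio of -0.31, while Mir145a at 0.50 and Mir214 at 0.31 were called higher, and Mir199a-1 was at 0 in both libraries. Of the 4 neuroendocrine markers, Mir7-1, Mir7-2 and Mir7b were called lower in replicate 2, as Mir29a and Mir29c were, with log2 ratios of -0.67, -1.19 and -0.76. The fourth, Mir375, had a log2 ratio of 0.01 and made up 91.0% of the list's sum of 37795 CPM in replicate 2 and 85.5% of 39914 CPM in replicate 1. The endothelial Mir126a had 45250 CPM in replicate 2 and 84263 CPM in replicate 1, and was called lower in replicate 2.

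Of the 7 epithelial markers, 5 were called higher in replicate 2 (Mir200a, Mir200b, Mir200c, Mir429 and Mir205, with log2 ratios of 0.55 to 2.02) and 1, Mir203, lower at -0.47. Their sum was 1221 CPM in replicate 2 against 1321 CPM in replicate 1, since Mir203 held 824 CPM of it in replicate 2 and 1139 CPM in replicate 1. The 5 blood markers had a sum of 1570 CPM in replicate 2 against 1410 CPM in replicate 1. Among them Mir150 was called higher in replicate 2 at 1.43 and Mir486 at 1.28, while Mir451a was called lower at -1.28. The remaining blood markers, Mir142 at -0.09 and Mir223 at -0.03, were not called. Of the 8 striated muscle markers 4 reached 1 CPM in each library, and Mir206 alone gave 3305 of 3337 CPM in replicate 2 and 919 of 929 CPM in replicate 1. Of the 4 muscle markers that could be tested, 3 were called higher in replicate 2 and 0 lower. These were Mir206 at 1.85, Mir499 at 2.18 and Mir133b at 2.42, the last on 14 counts in replicate 2 and 2 in replicate 1. Mir133a-2 was at 0 in both libraries.

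The part of all these cells in the miR-29 levels was not tested, and in whole glands fewer cells of a type and less RNA per cell cannot be told apart.

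The genes most like Mir29a in level and library difference were Mir434, at a Euclidean distance of 0.05 in log2(CPM + 1) over both libraries, and Mir203, at 0.07. For Mir29c they were Mir101a at 0.18 and Mir494 at 0.24, for Mir29b-1 n-TSaga9 at 0.15 and Mir675 at 0.23, and for Mir29b-2 Mir5113 at 0.06 and Mir670 at 0.18. This likeness rests on 2 libraries.

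Other miRNAs known for control of matrix genes, TGF-β signalling or fibrosis gave a mixed picture. Of 31 genes listed, 30 were in the table, 26 could be tested, 16 were called higher in replicate 2 and 5 lower. The called share was 80.8%, against 59.0% of all tested genes, of which 28.6% were called higher and 30.4% lower. The median log2 ratio was 0.42, against 0.07 over all genes. Calls went with depth: over all tested genes, 90.9% of those with summed counts of at least 1000 were called and 20.8% of those under 100. The list was not compared with genes of like depth, so its called share is no result about matrix miRNAs.

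The most abundant of the list was Mir143, a smooth muscle miRNA, with 30258 CPM in replicate 2 and 37387 CPM in replicate 1. Mir22 had 26923 CPM in replicate 2 and 18535 CPM in replicate 1. Mir21a, known to promote fibrosis, had 13582 CPM in replicate 2 and 6869 CPM in replicate 1. Mir30a, a known repressor of the matrix protein gene Ctgf, had 7152 CPM in replicate 2 and 6750 CPM in replicate 1. Of the list, 7 genes had a higher mean CPM than Mir29a, and Mir199a-1 and Mir133a-2 had 0 counts in both libraries. Mir21a had a log2 ratio of 0.98 and Mir143 one of -0.31, so the abundant matrix miRNAs did not move in 1 direction.

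The libraries hold no messenger RNA, so targets could be described only by sequence. The match to the seed was searched on the sense strand, not the other, of the longest 3′ UTR of each gene in GENCODE M21 on mm10. The 8-base match is TGGTGCTA, which is the 7-base match TGGTGCT followed by A. The other 7-base match, GGTGCTA, is the end of the 8-base one and was counted only outside it. Counts of genes with TGGTGCT include those with the 8-base match. The list of 27 genes was made from known miR-29 targets, so its matches are no independent evidence.

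Of these 27 genes 24 (88.9%) had the 7-base match TGGTGCT and 18 (66.7%) the 8-base match, against 13.1% and 2.86% of 20998 genes. The list's UTRs were longer, with a median of 1378 bases against 961. Per kilobase there were 1.03 copies of TGGTGCT in the list and 0.106 over all genes. Copies of the 8-base match numbered 0.416 per kilobase in the list and 0.0202 over all genes. Of the 15 collagen genes, 13 had the 7-base and 10 the 8-base match.

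Examples with the matched 8 bases in capitals are given for collagen I and III, the main fibrillar collagens, for elastin, the protein of elastic fibres, and for fibrillin-1, their microfibril scaffold. Each lies within 1 exon.

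Col1a1, chr11:94952527-94952556, plus strand: gaaggaatttcTGGTGCTAtagaagctgag

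Col3a1, chr1:45348971-45349000, plus strand: aaatgtctcaaTGGTGCTAtaataaataaa

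Eln, chr5:134703725-134703754, minus strand: ctcatcaacgtTGGTGCTActgcttggtgg

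Fbn1, chr2:125301162-125301191, minus strand: tgttgtctgttTGGTGCTAgtaaattctca

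Since all miR-29 3p strands have 1 seed, these matches do not tell the members apart. Col4a5, a chain of basement membrane collagen, had 3 matches of 8 bases, and Col5a1, Eln, Dnmt3a, Tet2 and Tet3 had 2 each. Col1a2, Col6a1 and Sparc had neither the 7-base match TGGTGCT nor the 8-base one, only the match GGTGCTA, with 1, 1 and 2 copies.

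**Figure D5:**
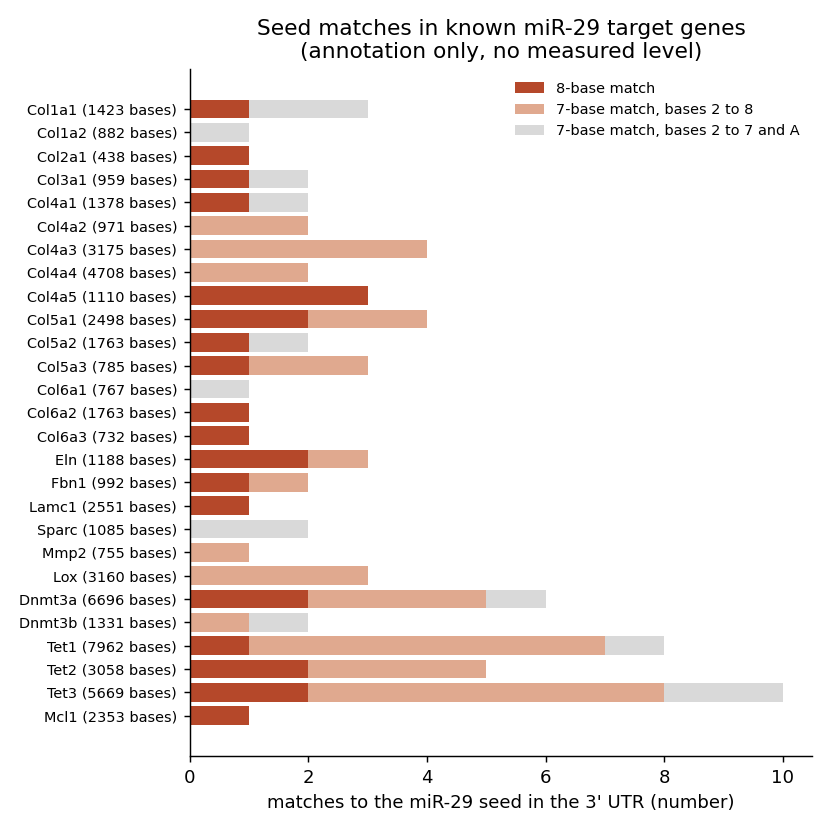
Number of seed matches in the longest 3′ UTR of 27 known miR-29 target genes, by kind of match, with the UTR length in brackets. All genes shown have a match of some kind, and 18 have the 8-base match.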

How the data were processed

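The authors deposited raw counts of reads per miRNA gene for each library, on mm10 with GENCODE M21, per the descriptions deposited with the files. Aligner and counter: not given in the sources used here. The values show 1 column without strand, 1 for the strand of the gene and 1 for the other strand. The second was used, and the first was a check. The 4 rows for unassigned reads stayed out of totals: in replicate 2 and replicate 1 they held 32.0% and 26.4% unmapped, 25.9% and 27.5% multiply mapped and 7.54% and 8.22% outside genes, with 0 ambiguous. Each identifier had a symbol in GENCODE.

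The members and lists were chosen with earlier results of these data known. Of the fixed gene names, 1 (Mir18a) was not found under that symbol. CPM used all gene counts. Log2 ratios added 0.5 counts. Libraries were compared by an exact two-sided binomial test over genes with at least 10 counts, Benjamini-Hochberg adjusted at 0.05. Its trial on simulated data held counting error only, so it cannot show how the test behaves with the wider spread of these libraries. Over 433 genes the chi-square was 793 times its degrees of freedom, so the files are not 1 library deposited a second time. They count as 2 samples because the labels number them as biological replicates and name different males, and nothing else shows that their spread is more than technical.

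Genes named were the members, their neighbours in rank and pattern, overlapping genes, leading list genes and those at 0. Other genes named from duplicated pairs or seed matches were chosen after their values were seen. UTRs began after the stop codon in the longest annotated version of a gene. Alternatives were the other count column, TMM and DESeq2 factors, Mir122 left out, other totals, pseudocounts and minimums, single replicates and the edgeR exact test. Tools were Python 3.11.15, numpy 2.4.6, pandas 2.3.3, scipy 1.17.1, biopython 1.88, matplotlib 3.10.9, R 4.3.3, edgeR 4.0.16 and DESeq2 1.42.0.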

Additional observations from a re-analysis of the deposited data

Results flagged for a closer look

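The row for reads that map to several places held 25.9% of the file in replicate 2 and 27.5% in replicate 1. Both are far above the 3 reads that a count of 0 allows. How far such reads also entered the gene counts was not tested. The identical miR-29b-3p of Mir29b-1 and Mir29b-2 is a sequence that fits more than 1 place. The share of miR-29b-3p among these reads was not tested.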

How the results depend on the processing

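Of 87 alternatives of 15 results, 76 kept the direction and the side of the threshold, stayed within 1 SD between libraries or, for counts of genes, within 1.5 times. A single replicate lies within 1 SD of a mean of 2 by construction, and such cases are among the 76. With all reads of the file as the total, the mean levels were 347 CPM for Mir29a, 4.79 for Mir29b-1, 2.67 for Mir29b-2 and 75.3 for Mir29c, and the family share was 0.0430%, since that total holds unassigned reads. Counted without strand, each member had the same counts as on its own strand, so ratios and shares within the family could not change and are also among the 76. Mir29b-1 had 16.3 CPM and Mir29b-2 9.04 CPM because the total is smaller. The edgeR exact test gave log2 ratios of -0.57 for Mir29a and -0.75 for Mir29c, neither called, and called 2 genes and 0 members. Its spread comes from the libraries it compares, with a biological coefficient of variation of 0.394.

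The log2 ratios between libraries and the counts of calls could not be recomputed without a replicate. No paired analysis was possible because there is 1 group. The 29b levels rest on 19 to 45 counts a library, which limits their ratio.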
